A study of Homo sapiens with 59 samples.

Results

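NR4A1, NR4A2 and NR4A3 are the 3 members of the NR4A family of orphan nuclear receptors, and they were taken from the deposited count table as the rows whose Ensembl identifiers map to these symbols, 3 of 60675 genes. They were chosen by their levels (TMM-scaled CPM) across vehicle and the extract and dose groups, so these levels and fold changes are given as a description, with no test. The cell line is A549, established from a human lung carcinoma, and its RNA was sequenced in bulk after 24 h with vehicle or with a 70% ethanol extract of 1 of 8 herbal medicines. Vehicle was DMSO (n = 3 libraries), at 0.1% in the sample labels and 2% in the series text. The doses were 110, 22 and 4.4 µg/mL for Coptidis Rhizoma (n = 2 at each dose) and 190, 38 and 7.6 µg/mL for Bupleuri Radix (n = 3 each). The doses of the other 6 medicines were 500, 100 and 20 µg/mL, called high, medium and low here. Citri Unshius Pericarpium and Cimicifugae Rhizoma had n = 3 at each of these doses, Zizyphi Fructus and Yijung-tang n = 2, and Banhasasim-tang n = 1. Aconiti Lateralis Radix Preparata had n = 3 at the high dose, 2 at the medium and 3 at the low. All groups are the same cell line kept in serum-containing medium, so no genotype or allele differs between them.

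NR4A1 (NUR77), NR4A2 (NURR1) and NR4A3 (NOR1) are transcription factors of the nuclear receptor superfamily that have no known physiological ligand, and their activity follows mainly from how much protein the cell makes. They are immediate early genes: cAMP, calcium, growth factor and stress signals raise their transcription within the hour through CREB with its CRTC coactivators, and through MEF2. The proteins bind the NBRE element as monomers, paired elements as dimers, and NR4A1 and NR4A2 also pair with the retinoid X receptor RXR. In the lung they have been studied in inflammation and in carcinoma, and A549 is a line that has lost the kinase LKB1 (STK11), which restrains CRTC through the SIK kinases.

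On GRCh38 with GENCODE 29, NR4A1 (ENSG00000123358) lies at chr12:52022832-52059507 on the plus strand, NR4A2 (ENSG00000153234) at chr2:156324432-156342348 on the minus strand, and NR4A3 (ENSG00000119508) at chr9:99821855-99866891 on the plus strand. All 3 are protein-coding. An antisense noncoding gene, NR4A1AS, lies at chr12:52058459-52059503 on the minus strand, inside the 3′ end of NR4A1. Promoter windows were taken from RefSeq on GRCh38.p14, which matched NR4A1 and NR4A3, and were searched on both strands for the core of the CREB-binding element CRE (TGACG, or CGTCA on the other strand), the full CRE (TGACGTCA), the NBRE (AAAGGTCA) and the AP-1 site (TGANTCA). The core is part of the full element. The stretches directly upstream of the annotated starts are shown because CREB is the textbook regulator of the family; capitals mark the CRE core.
NR4A3 promoter, chr9:99821635-99821854, plus strand: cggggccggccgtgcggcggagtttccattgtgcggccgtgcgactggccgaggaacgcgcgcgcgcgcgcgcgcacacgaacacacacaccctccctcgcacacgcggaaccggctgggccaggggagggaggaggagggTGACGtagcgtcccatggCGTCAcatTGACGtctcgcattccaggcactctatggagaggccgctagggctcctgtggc
NR4A1 promoter, chr12:52022582-52022831, plus strand: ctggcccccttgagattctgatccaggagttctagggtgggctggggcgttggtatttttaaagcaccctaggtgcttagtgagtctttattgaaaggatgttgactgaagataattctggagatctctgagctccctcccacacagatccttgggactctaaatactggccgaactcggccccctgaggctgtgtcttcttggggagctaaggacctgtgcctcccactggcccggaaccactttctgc
The NR4A3 window of 250 bases before the RefSeq start held 4 CRE cores, at -109, -91, -83 and -25 from that start, of which the printed stretch shows 3. It held 0 full CREs, 0 NBREs and 0 AP-1 sites. Both NR4A1 windows, the one printed and chr12:52037465-52037714, held 0 matches to any of the 4 motifs. Bases before any other NR4A1 start were not searched, so this says nothing about a promoter outside these windows. The counts are at gene level, so which start the cells used is not known. Among all 35116 RefSeq windows, 21.2% held a CRE core, 1.65% a full CRE, 1.05% an NBRE and 6.57% an AP-1 site. Such a match is a run of letters and not a measured binding site.

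Library totals ran from 17214755 to 39751161 expected counts. The epithelial keratins KRT8 and KRT18 had at least 1956 and 1584 CPM in every library and the aldo-keto reductase AKR1B10, high in A549, at least 1879 CPM, while EPCAM had 2.41 to 9.32 CPM. PTPRC, CD3E, LYZ, PECAM1, VWF, CDH5, DCN, HBB and ALB, markers of blood, endothelial, stromal and liver cells, were at most 0.166 CPM in any library. The stromal marker COL1A2 was at 0 in 36 libraries and at most 3.39 CPM. Other markers of such cells were detected in all 59 libraries, CD68 at 2.46 to 30.4 CPM, COL1A1 at 4.23 to 74.8 and ACTA2 at 3.69 to 12. In 4 libraries, called antisense-rich here, antisense-type genes took 3149.2 to 4600.9 CPM, against 2374.5 to 3137.3 CPM in the other 55. For Citri Unshius Pericarpium these were replicate 3 of both upper doses, and for Cimicifugae Rhizoma replicate 2 of both lower doses. The split is narrow at its edge, where replicate 2 of medium-dose Cimicifugae Rhizoma had 3149.2 CPM. The 2 high-dose Coptidis Rhizoma libraries, kept among the 55, had 3137.3 and 3133.0 CPM. Mitochondrial rRNA took 2.24% to 2.43% of counts in vehicle and up to 11.15% with Coptidis Rhizoma and 15.21% with Banhasasim-tang. The first number of each library code is read here as a library set, whose meaning the labels do not give: each set holds 2 medicines and vehicle has a code of its own, so an effect of a set and one shared by both its medicines cannot be told apart. In bulk RNA, fewer cells making a transcript and less transcript per cell cannot be told apart either.

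In vehicle, NR4A1 was the most abundant of the 3 genes and NR4A2 the least. NR4A1 was at 38.2, 35.6 and 39.5 CPM in the 3 libraries (CPM, counts scaled to library size with TMM factors), NR4A3 at 8.77, 9.52 and 7.78 CPM, and NR4A2 at 3.17, 3.97 and 3.94 CPM. Longer transcripts give more reads, so levels are compared between genes per kilobase of exon (7295 bases for NR4A1, 3967 for NR4A2 and 6314 for NR4A3). On that scale NR4A1 was at 4.88 to 5.41 CPM per kb, NR4A3 at 1.23 to 1.51 and NR4A2 at 0.799 to 1.00. The 3 ranges did not overlap. NR4A1 made up 66% to 70.9% of the summed family level per kb, NR4A3 16.1% to 20.4% and NR4A2 10.8% to 13.6%. The vehicle reads behind these values were 770.99 to 1021.46 expected counts for NR4A1, 152 to 273 for NR4A3 and 77 to 114 for NR4A2, so NR4A2 is the least precisely counted. NR4A2 and NR4A3 had whole counts in all 59 libraries, while NR4A1 had a whole count in 6 and decimals in the others. RSEM divides a read that matches more than 1 gene between them; which genes share reads with NR4A1 was not tested.

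**Figure D1:**
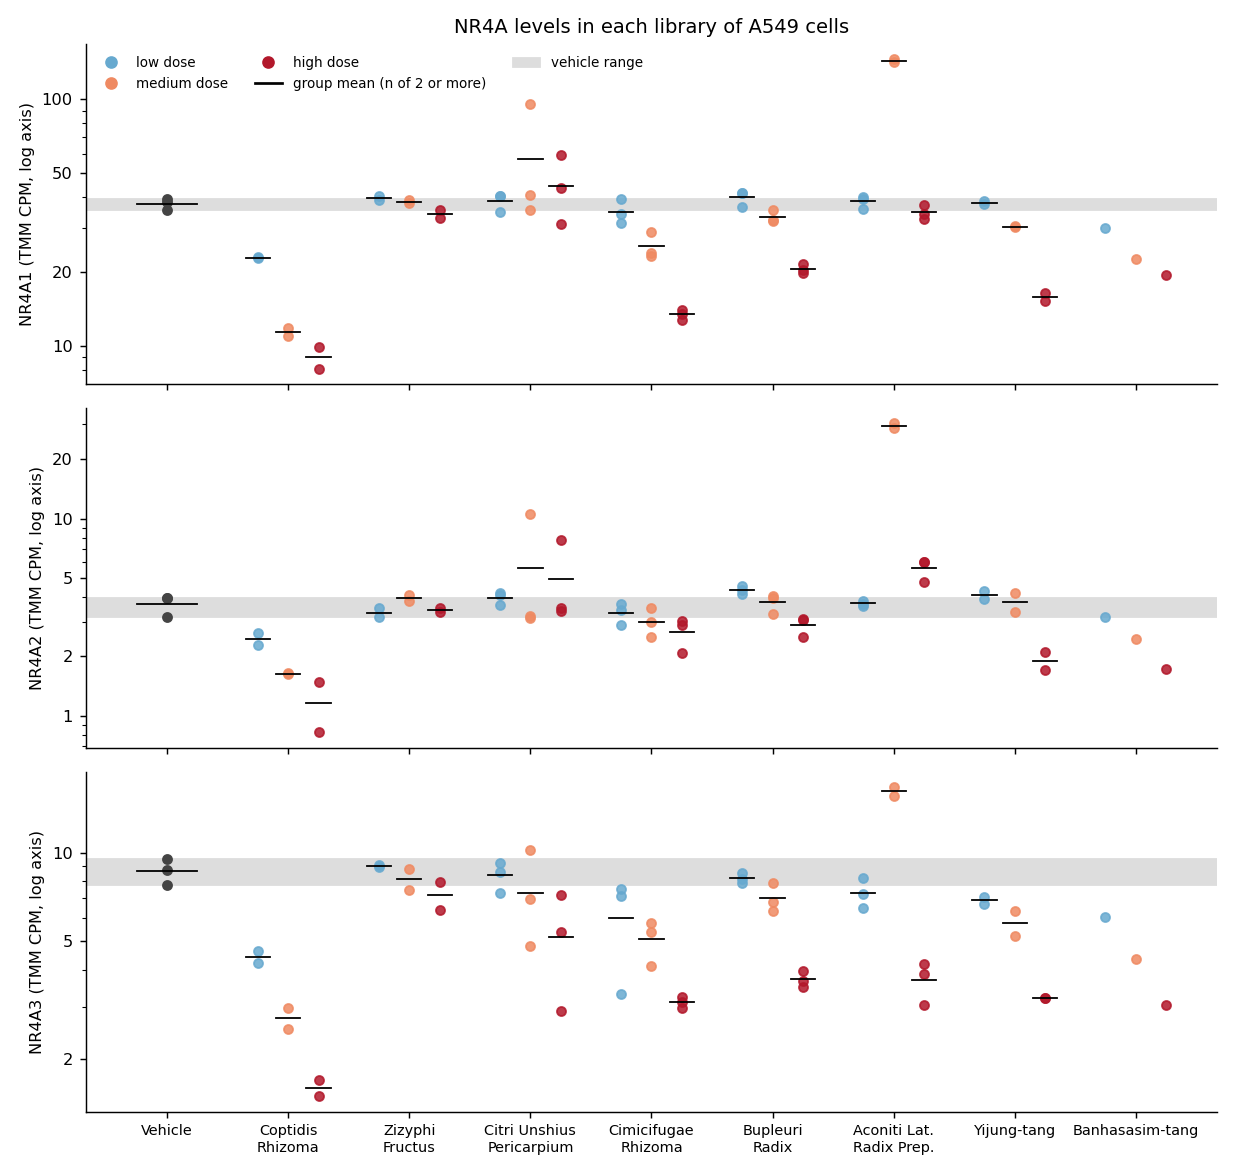
TMM-scaled CPM on a log axis of NR4A1 (top), NR4A2 (middle) and NR4A3 (bottom) in each of the 59 libraries; points are libraries coloured by dose, black bars are means of groups with 2 or more libraries, and the grey band is the vehicle range. NR4A1 runs from 8.09 CPM with Coptidis Rhizoma at the high dose to 145 CPM with medium-dose Aconiti Lateralis Radix Preparata, around a vehicle range of 35.6 to 39.5 CPM.

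Coptidis Rhizoma, the rhizome known for the alkaloid berberine, had the lowest levels of all 3 receptors, at the high dose, and the levels stepped down with dose. NR4A1 was at 8.09 and 9.88 CPM at the high dose, 11.0 and 11.8 at the medium and 22.7 and 22.9 at the low. NR4A3 was at 1.69 and 1.49 CPM at the high dose, 2.52 and 2.98 at the medium and 4.22 and 4.64 at the low. NR4A2 was at 1.49 and 0.823 CPM at the high dose, 1.64 and 1.62 at the medium and 2.28 and 2.64 at the low. Every Coptidis Rhizoma library lay below every vehicle library for each gene. Among the 18568 genes tested, 29.5% lay wholly below vehicle at the high dose, 24.5% at the medium and 20.4% at the low. The log2 fold change against vehicle at the high dose was -2.45 ± 0.29 for NR4A3, -2.07 ± 0.24 for NR4A1 and -1.68 ± 0.37 for NR4A2 (estimate ± standard error of the edgeR fit, here and below). At the low dose it was -0.97 ± 0.26 for NR4A3, -0.73 ± 0.22 for NR4A1 and -0.59 ± 0.34 for NR4A2. The NR4A2 value is the least certain: its 2 high-dose libraries hold 36 and 21 reads, and it was -1.29 without replicate 3 and -2.14 without replicate 2.

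Comparisons that use no vehicle library had the same direction. From the low to the high dose of Coptidis Rhizoma, within 1 library set, NR4A1 differed by -1.34 ± 0.25 on the log2 scale, NR4A3 by -1.48 ± 0.32 and NR4A2 by -1.09 ± 0.41. All 3 lay wholly below the low dose, as did 31.4% of the tested genes. Zizyphi Fructus, the jujube fruit, is the other medicine of that set, and its libraries overlapped vehicle at every dose. With it NR4A1 was at 33.1 and 35.7 CPM at the high dose, 37.8 and 38.9 at the medium and 39.2 and 40.4 at the low. NR4A3 ran from 6.41 to 9.10 CPM and NR4A2 from 3.17 to 4.10 CPM over its 6 libraries. At each dose 0 of the 3 genes stood apart from vehicle, where 13.1%, 13.5% and 17.4% of the tested genes lay wholly below and 13.2%, 12.7% and 15.2% wholly above at the high, medium and low dose. Against its own low dose, the high dose of Zizyphi Fructus was lower without overlap for NR4A1 (-0.21 ± 0.24) and NR4A3 (-0.33 ± 0.27), as were 15.4% of the tested genes, and both differences are near or within 1 standard error. At their high doses, which differ (110 and 500 µg/mL), Coptidis Rhizoma and Zizyphi Fructus had mean NR4A1 levels of 8.98 and 34.4 CPM, NR4A3 levels of 1.59 and 7.18 CPM and NR4A2 levels of 1.15 and 3.43 CPM, with no overlap (32.7% of the tested genes lay wholly lower with Coptidis Rhizoma). Mitochondrial rRNA moved with Coptidis Rhizoma too, at 6.09% to 11.15% of counts in its 6 libraries and at its highest at the medium dose; its part in the NR4A levels was not tested.

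Cimicifugae Rhizoma, a rhizome of the bugbane genus, had NR4A1 and NR4A3 at 0.355 and 0.358 of vehicle at the high dose and NR4A2 at 0.717 of it. NR4A1 was at 14.0, 12.7 and 13.5 CPM at the high dose, 29.0, 23.7 and 23.2 at the medium and 34.1, 39.4 and 31.5 at the low. NR4A3 was at 3.12, 3.25 and 2.97 CPM at the high dose, 5.39, 4.14 and 5.77 at the medium and 7.15, 3.32 and 7.52 at the low. NR4A2 was at 3.02, 2.88 and 2.07 CPM at the high dose, just under the lowest vehicle library. All 3 genes lay below vehicle at the high dose (13% of the tested genes did), NR4A1 and NR4A3 at the medium (8.01%) and NR4A3 at the low (5.3%). At the high dose the log2 fold change was -1.49 ± 0.20 for NR4A1, -1.48 ± 0.23 for NR4A3 and -0.48 ± 0.29 for NR4A2. The high dose differed from the low by -1.38 ± 0.20 for NR4A1 and by -0.94 ± 0.23 for NR4A3, both without overlap (4.11% of the tested genes), and by -0.33 ± 0.30 for NR4A2, with overlap. Replicate 2 at the low dose, an antisense-rich library, had the lowest NR4A3 of its group (3.32 CPM) together with the highest NR4A1 (39.4 CPM) and 7.29 CPM of NR4A1AS, against 0.437 to 0.768 CPM of NR4A1AS in vehicle. Without the 4 antisense-rich libraries the NR4A3 fold change at the low dose went from -0.54 to -0.25 on the log2 scale, and at the medium dose NR4A1 had -0.54 in place of -0.58 and NR4A3 -0.65 in place of -0.77. Mitochondrial rRNA was at 2.36% to 3.05% in the 3 high-dose libraries.

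Bupleuri Radix had lower NR4A levels at the high dose and levels near vehicle at the others. NR4A1 was at 21.5, 20.3 and 19.8 CPM at 190 µg/mL, 32.4, 32.2 and 35.5 at 38 µg/mL and 41.6, 41.8 and 36.5 at 7.6 µg/mL. NR4A3 was at 3.50, 3.68 and 3.98 CPM at the high dose, 7.88, 6.78 and 6.35 at the medium and 8.57, 8.14 and 7.91 at the low. NR4A2 was at 3.05, 3.10 and 2.50 CPM at the high dose, 3.96, 4.06 and 3.29 at the medium and 4.53, 4.35 and 4.12 at the low. All 3 genes lay below vehicle at the high dose (19.1% of the tested genes did); at the medium dose NR4A1 still did, narrowly (15.2%), and at the low dose NR4A2 lay just above (13.6%). The log2 fold change at the high dose was -1.23 ± 0.23 for NR4A3, -0.88 ± 0.19 for NR4A1 and -0.36 ± 0.29 for NR4A2. Against its low dose, the high dose was lower without overlap for all 3 (10.9% of the tested genes), by -1.14 ± 0.23 for NR4A3, -0.96 ± 0.19 for NR4A1 and -0.59 ± 0.28 for NR4A2.

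The 2 formulas, Yijung-tang and Banhasasim-tang, also had lower NR4A levels toward the high dose. With Yijung-tang NR4A1 was at 16.4 and 15.2 CPM at the high dose, 30.2 and 30.6 at the medium and 37.6 and 38.6 at the low. NR4A3 was at 3.22 and 3.21 CPM, 6.33 and 5.22 CPM, and 6.69 and 7.10 CPM in the same order, and NR4A2 at 2.10 and 1.71, 3.35 and 4.19, and 4.30 and 3.93 CPM. At the high dose all 3 lay below vehicle (23.2% of the tested genes did), at the medium NR4A1 and NR4A3 (15.9%) and at the low NR4A3 (20.4%). The high-dose log2 fold change was -1.44 ± 0.26 for NR4A3, -1.26 ± 0.23 for NR4A1 and -0.95 ± 0.34 for NR4A2. All 3 lay below the low dose as well (24.9% of the tested genes), by -1.10 ± 0.28, -1.27 ± 0.24 and -1.10 ± 0.36 for NR4A3, NR4A1 and NR4A2. Banhasasim-tang has 1 library per dose and no replicate check. Its NR4A1 was at 19.3, 22.5 and 30.1 CPM at the high, medium and low dose, its NR4A3 at 3.03, 4.37 and 6.03 CPM and its NR4A2 at 1.72, 2.46 and 3.16 CPM. Each of these 9 values was below the lowest vehicle library, NR4A2 at the low dose by the smallest margin (3.16 against 3.17 CPM). Among the tested genes 37.1%, 32.1% and 30.9% lay below every vehicle library at the high, medium and low dose. Mitochondrial rRNA was at 15.21%, 11.53% and 3.87% of counts in those libraries, and at 2.64% and 3.12% in the Yijung-tang high-dose libraries; its part in the Banhasasim-tang values was not tested.

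**Figure D2:**
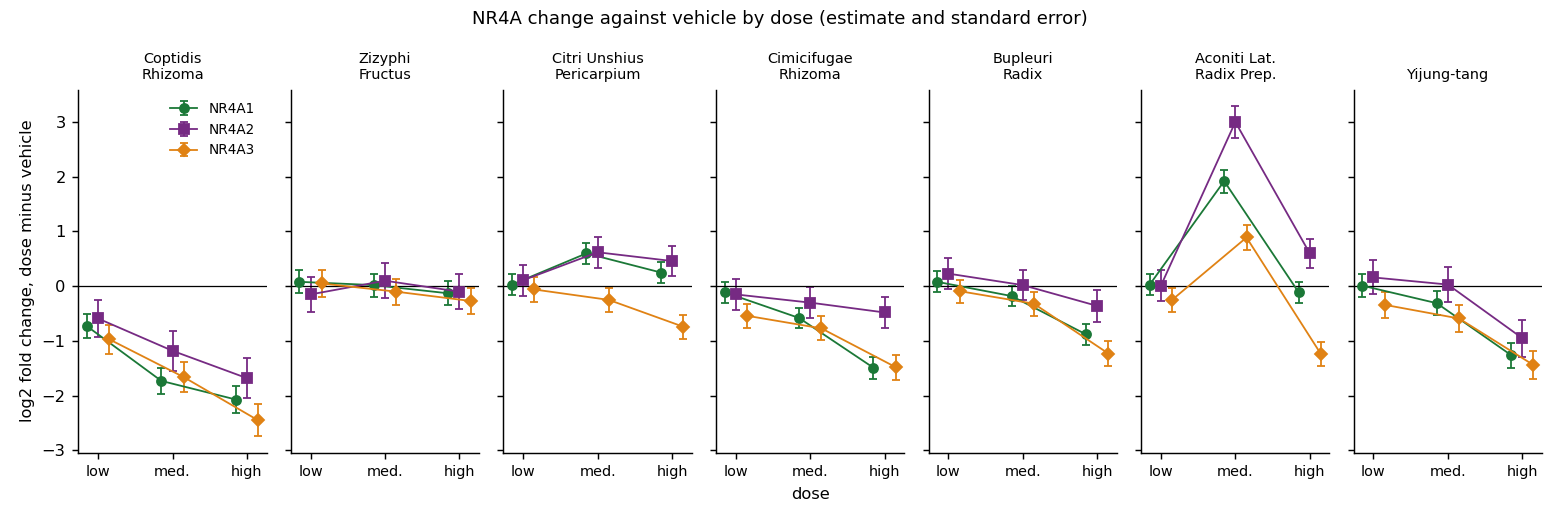
Log2 fold change of each NR4A gene against vehicle at the low, medium and high dose of the 7 medicines with replicates; points are edgeR estimates and bars standard errors. With Coptidis Rhizoma the high-dose estimates are -2.07, -1.68 and -2.45 for NR4A1, NR4A2 and NR4A3; with Aconiti Lateralis Radix Preparata the medium dose peaks at 1.92, 3.00 and 0.89.

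Aconiti Lateralis Radix Preparata, processed aconite root, was the 1 medicine with all 3 receptors above vehicle at a dose, the medium one, and its dose series was not monotonic. NR4A1 was at 141 and 145 CPM at the medium dose, against 34.3, 37.4 and 32.8 at the high and 35.8, 40.2 and 39.5 at the low. NR4A2 was at 30.4 and 28.7 CPM at the medium dose, against 6.01, 6.02 and 4.76 at the high and 3.82, 3.62 and 3.69 at the low. NR4A3 was at 15.6 and 16.7 CPM at the medium dose, against 3.04, 3.87 and 4.18 at the high and 7.23, 6.48 and 8.19 at the low. All 3 genes were above every vehicle library at the medium dose, where 28.6% of the tested genes were. The log2 fold change there was 3.00 ± 0.29 for NR4A2, a 7.99-fold higher level, 1.92 ± 0.21 for NR4A1 (3.78-fold) and 0.89 ± 0.23 for NR4A3 (1.85-fold). Against the low dose, with no vehicle in the comparison, the medium dose was higher by 2.99 ± 0.29 for NR4A2, 1.89 ± 0.21 for NR4A1 and 1.14 ± 0.23 for NR4A3, without overlap (27.6% of the tested genes lay wholly above).

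The high dose of the same root split the family. NR4A2 lay above vehicle (0.60 ± 0.27 on the log2 scale, where 18% of the tested genes lay wholly above), NR4A3 lay below (-1.24 ± 0.22, where 19.5% did), and NR4A1 overlapped vehicle (-0.11 ± 0.19). The same order held against its own low dose: 0.59 ± 0.27 for NR4A2 (above, as 13.8% of the tested genes), -0.14 ± 0.19 for NR4A1 (overlapping) and -0.98 ± 0.22 for NR4A3 (below, as 14.5%). From the high to the medium dose the 3 genes were higher by like amounts, 2.40 ± 0.28 for NR4A2, 2.13 ± 0.24 for NR4A3 and 2.03 ± 0.21 for NR4A1, without overlap (26.1% of the tested genes). At the low dose all 3 overlapped vehicle, where 12.8% of the tested genes lay wholly below and 13% wholly above. Bupleuri Radix is the other medicine of the set: its high-dose libraries (190 µg/mL) had lower NR4A1 and NR4A2 than the high-dose aconite libraries (500 µg/mL), 20.5 against 34.9 CPM and 2.88 against 5.60 CPM, both without overlap (12.6% of the tested genes), and near-equal NR4A3, 3.72 against 3.69 CPM. Mitochondrial rRNA was at 2.15% to 3.17% in the 8 aconite libraries and NR4A1AS at 1.80 and 1.93 CPM in the 2 medium-dose libraries; without strand-resolved counting its reads and those of NR4A1 could be mixed, and whether strand was used in counting is not known here.

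With Citri Unshius Pericarpium, mandarin peel, the libraries of the high and medium doses differed widely from one another, and 1 replicate carried the high values. NR4A1 was at 31.1, 59.2 and 43.7 CPM in replicates 1, 2 and 3 of the high dose, 35.5, 95.5 and 40.8 at the medium and 35.0, 40.4 and 40.5 at the low. NR4A2 was at 3.53, 7.82 and 3.40 CPM at the high dose, 3.21, 10.5 and 3.14 at the medium and 3.66, 4.19 and 4.08 at the low. NR4A3 was at 7.21, 5.38 and 2.90 CPM at the high dose, 6.96, 10.2 and 4.81 at the medium and 9.22, 8.62 and 7.30 at the low. Replicate 2 had the highest NR4A1 and NR4A2 at the high and medium doses, while its low-dose library was close to the other 2. NR4A3 was below vehicle in all 3 high-dose libraries (7.48% of the tested genes were), NR4A1 and NR4A2 overlapped, and 0 of the 3 genes stood apart at the medium (5.06% wholly below and 5.39% wholly above) or low dose (6.64% and 5.24%). The high-dose log2 fold change was -0.74 ± 0.22 for NR4A3, 0.25 ± 0.19 for NR4A1 and 0.46 ± 0.28 for NR4A2; without the 3 libraries of replicate 2 the NR4A2 value was -0.09, and at the medium dose it went from 0.62 to -0.22 and that of NR4A1 from 0.60 to 0.02. The high-dose NR4A1 value was -0.02 without them. The standard errors pool the spread over all groups, so they do not measure the wide spread of these libraries. Replicate 3 at the high dose, an antisense-rich library, had the lowest NR4A3 of its group (2.90 CPM) and 13.2 CPM of NR4A1AS, the most of the 59 libraries; without the 4 antisense-rich libraries the NR4A3 fold change was -0.50 at the high dose and -0.02 in place of -0.25 at the medium. The part of the antisense reads in these values was not tested. Cimicifugae Rhizoma, of the same set and given at the same doses, had lower NR4A1 and NR4A2 than mandarin peel at the high dose without overlap (7.51% of the tested genes), by -1.74 ± 0.20 and -0.94 ± 0.29, while NR4A3 overlapped (-0.74 ± 0.24).

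The make-up of the family shifted where the receptors moved unequally. Per kilobase of exon, NR4A1 held the largest part in each of the 59 libraries, from 58.3% to 82%, and NR4A2 and NR4A3 exchanged places. Outside the 4 antisense-rich libraries, which had 71.6% to 82%, its highest part was 75.4%. NR4A2 reached 24.4% and 26% of the family in the medium-dose aconite libraries and 18.8% to 22.6% in the high-dose ones, where NR4A3 was at 8.37% and 8.91%, and at 7.18% to 10.4%. In vehicle NR4A3 had been above NR4A2 in each library. With Cimicifugae Rhizoma at the high dose NR4A2 held 18.4% to 24.4% and NR4A3 15.6% to 17.3%. High-dose Bupleuri Radix had 15.9% to 18.8% for NR4A2 and 13% to 15.8% for NR4A3, near equal in replicate 3 (15.9% and 15.8%). High-dose Citri Unshius Pericarpium had 18% and 11.7% for NR4A2 and 7.78% and 6.3% for NR4A3 in replicates 2 and 3. Its replicate 1 kept the vehicle order, 14.1% and 18.2%. With Coptidis Rhizoma at the high dose, where all 3 were lowest, NR4A1 held 63.3% and 75.3%, NR4A2 21.4% and 11.5% and NR4A3 15.3% and 13.1%, with 36 and 21 NR4A2 reads in the 2 libraries.

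**Figure D3:**
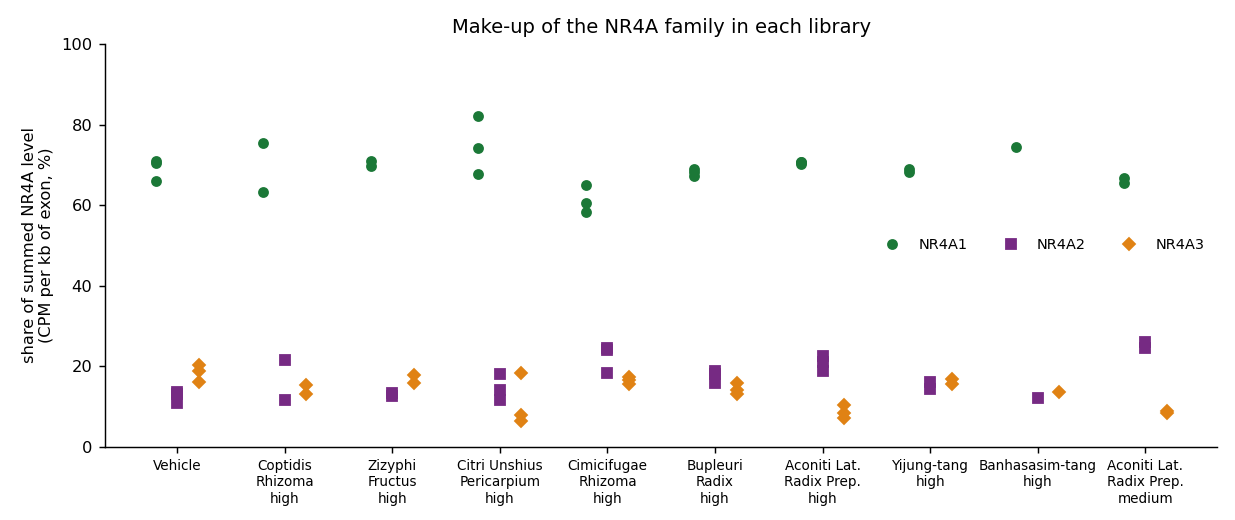
Share of each NR4A gene in the summed NR4A level per kilobase of exon (%), in each library of vehicle, the 8 high-dose groups and the medium dose of Aconiti Lateralis Radix Preparata; each point is a library. NR4A2 (at most 13.6% in vehicle) reaches 26% at the medium aconite dose, and NR4A3 (at least 16.1% in vehicle) is at 8.37% and 8.91% there.

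Ordered by mean level, the 22 groups with 2 or more libraries were compared with their neighbours in the order. For NR4A1 9 of the 21 pairs of neighbours in the order did not overlap: the medium-dose aconite group at the top, and below vehicle the steps from Bupleuri Radix medium (33.4 CPM) down through Yijung-tang medium (30.4), Cimicifugae Rhizoma medium (25.3), Coptidis Rhizoma low (22.8), Bupleuri Radix high (20.5), Yijung-tang high (15.8), Cimicifugae Rhizoma high (13.4) and Coptidis Rhizoma medium (11.4) to Coptidis Rhizoma high (8.98). For NR4A2 4 of the 21 pairs did not overlap, and for NR4A3 3. Over all tested genes the median number of such pairs was 0, and as many or more were found in 0.00539% of genes for the count of NR4A1, 2.29% for that of NR4A2 and 6.59% for that of NR4A3. Each share counts the receptor itself, so that of NR4A1 is NR4A1 alone. These levels chose the genes, so the shares are a description and measure no chance. NR4A2 and NR4A3 had the same top and bottom groups as NR4A1, but from the second rank to Coptidis Rhizoma low each group of NR4A2 overlapped its neighbour (5.63 down to 2.46 CPM). For NR4A3 that run went from 9.03 CPM (Zizyphi Fructus low) to 4.43 CPM (Coptidis Rhizoma low).

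The genes around the family were taken in 6 lists with 146 genes, of which 121 were tested. Some genes stand in more than 1 list, and these totals count each once. FOSB and DUSP1 are listed both as CREB and CRTC targets and as immediate early genes, so the shares of those lists are not separate. Called genes have an edgeR adjusted p (Benjamini-Hochberg over all tested genes) below 0.05, and each count stands beside the share of all tested genes called. The lists bear on whether known inputs and outputs of the NR4A receptors moved in the same libraries. All comparisons with vehicle share its 3 libraries. How many genes passed depended on which libraries shared the fit. With Coptidis Rhizoma at the high dose 20 of the 121 list genes were called (12.6% of all genes), 49 without the 4 antisense-rich libraries and 67 in a fit with vehicle alone. With Citri Unshius Pericarpium at the high dose 5 were called (4.42% of all genes), and leaving out 1 library gave from 0 (without vehicle replicate 1) to 35 (without its own replicate 1). Its list genes are therefore not described one by one.

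Of the upstream regulators of NR4A transcription 23 were tested. CREB1 was not called in any of the 8 comparisons with vehicle, with log2 fold changes from -0.33 ± 0.13 with Citri Unshius Pericarpium to 0.11 ± 0.14 with Coptidis Rhizoma. With Coptidis Rhizoma at the high dose 1 of 23 was called, against 12.6% of all genes, and 5 without the 4 antisense-rich libraries. PPP3CA, a catalytic subunit of calcineurin, fell by 0.42 ± 0.07 on the log2 scale (adjusted p = 2.26e-05), a call lost without the low-count filter (adjusted p = 0.0855). At the medium aconite dose 3 rose and 2 fell, or 21.7% against 17.5% of all genes (6 and 5 without the 4 antisense-rich libraries). HDAC5, a class IIa deacetylase that represses MEF2, rose from 3.88 ± 0.317 to 8.89 ± 0.218 CPM (SD; adjusted p = 8.55e-06). The CREB coactivator gene CRTC2 rose from 27.8 ± 0.743 to 39.4 ± 0.858 CPM (adjusted p = 0.0049). PPP3CA fell from 116 ± 2.07 to 82.3 ± 3.25 CPM (adjusted p = 5.9e-07). PRKACA, a catalytic subunit of protein kinase A, fell there by 0.58 ± 0.17 on the log2 scale (adjusted p = 0.0129), and lost the call without either medium-dose replicate (adjusted p up to 0.121). At the high aconite dose 2 rose and 1 fell (13% against 4.65%), and these calls, of CRTC1, CRTC2 and PPP3CA, were lost in 3 to 6 of 13 alternatives. All 3 were lost without the low-count filter and without replicate 2 of that dose. With Bupleuri Radix at the high dose 1 rose and 1 fell (8.7% against 3.36% of all genes). CRTC1 rose from 9.24 ± 0.512 to 12.3 ± 0.949 CPM (adjusted p = 0.00951), a call lost in 3 of 13 alternatives. PPP3CA fell to 93.4 ± 3.1 CPM (adjusted p = 0.000993), a call lost without the low-count filter.

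CREB and CRTC targets other than the receptors were called in both directions. Of 17 tested, 4 fell and 0 rose with Coptidis Rhizoma at the high dose, 23.5% against 12.6% of all genes, with a median log2 fold change of -0.33 (-0.01 over all genes); 7 fell without the 4 antisense-rich libraries. INSL4, an insulin-like peptide gene and CRTC target in LKB1-deficient lung carcinoma, had 5.94 ± 0.757 against 17.8 ± 2.25 CPM in vehicle (adjusted p = 6.45e-09). CPS1, the first enzyme of the urea cycle, had 29.1 ± 0.957 against 70.1 ± 2.88 CPM (adjusted p = 8.65e-06). RGS2, a brake on G protein signalling, had 7.93 ± 0.422 against 17.3 ± 1.05 CPM (adjusted p = 1.47e-06), and the insulin receptor substrate gene IRS2 had 63.8 ± 1.54 against 96.7 ± 6.25 CPM (adjusted p = 2.74e-05). INSL4 also fell at the high dose of Yijung-tang, to 9.47 ± 0.0775 CPM (adjusted p = 0.000753), the 1 call of 17 where 1.37% of all genes were called. With Bupleuri Radix it fell to 11.0 ± 2.25 CPM (adjusted p = 0.00237), 1 of 2 calls of 17 (3.36% of all genes). With Cimicifugae Rhizoma it fell to 11.5 ± 0.673 CPM (adjusted p = 0.0307), the 1 call of 17 (0.377% of all genes). That call was lost (adjusted p up to 0.375) without vehicle replicate 1 or 3, without any 1 of the high-dose replicates and in the fit with vehicle alone; 5 list genes fell without the 4 antisense-rich libraries. At the medium aconite dose, where the receptors were high, 7 of 17 rose and 2 fell (52.9% against 17.5%), and 1 fell without either medium-dose replicate. FOSB, an AP-1 subunit, rose from 1.23 ± 0.175 to 45.4 ± 3.13 CPM (adjusted p = 7.31e-09). STC1, stanniocalcin, rose from 6.79 ± 0.588 to 32.8 ± 3.02 CPM (adjusted p = 1.26e-10) and PTGS2, cyclooxygenase, from 22.3 ± 2.7 to 74.0 ± 0.566 CPM (adjusted p = 0.000218), while INSL4 fell to 7.22 ± 0.541 CPM (adjusted p = 1.25e-07). Of the 17, 2 rose and 2 fell at the high aconite dose (23.5% against 4.65% of all genes). FOSB and STC1 rose, and CPS1 fell, a call lost in 6 of 13 alternatives. INSL4 fell there too, to 9.44 ± 0.267 CPM (adjusted p = 3.64e-05). In those libraries NR4A1 overlapped vehicle, NR4A2 lay above it and NR4A3 below it. The textbook CREB targets CREM, PDE4D and SIK1 were not called at the medium aconite dose. CREM had 27.1 ± 1.11 against 27.2 ± 0.825 CPM (adjusted p = 0.994). PDE4D had 312 ± 7.44 against 323 ± 19.9 CPM (adjusted p = 0.919) and SIK1 1.76 ± 0.299 against 2.14 ± 0.535 CPM (adjusted p = 0.671). CREM fell slightly with Bupleuri Radix (21.9 ± 0.507 CPM, adjusted p = 0.036), a call lost without any 1 of the 6 libraries compared and without the low-count filter. Of the 20 list genes with a RefSeq window, some of them not tested here, 13 held a CRE core, against 24.9% of all genes. CREM, AREG, DUSP1, SST and CGA held a full CRE, against 2.03% of all genes, and SST and CGA were not tested. The list was chosen as CREB and CRTC targets, so these shares describe that choice.

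The immediate early genes called with Coptidis Rhizoma were all higher, in libraries where the receptors, which belong to the same class, were lower. Of 26 tested, 7 rose and 0 fell at its high dose (26.9% against 12.6%), with a median log2 fold change of 0.25. Without vehicle replicate 1, or without replicate 3 of that dose, 4 rose, and without the 4 antisense-rich libraries 11 did. FOSL1, an AP-1 subunit, rose from 27.6 ± 0.892 to 69.0 ± 5.07 CPM (adjusted p = 0.00352), and the stress-induced repressor gene ATF3 from 8.35 ± 0.341 to 18.8 ± 0.941 CPM (adjusted p = 0.000327). The Krüppel-like factor gene KLF2 rose from 5.97 ± 0.98 to 12.5 ± 0.0837 CPM (adjusted p = 0.000863) and JUN from 32.7 ± 1.35 to 55.8 ± 0.44 CPM (adjusted p = 2.98e-06). FOS, which shares cAMP and growth factor inputs with the receptors, had 1.99 ± 0.101 against 3.07 ± 0.62 CPM there (adjusted p = 0.329). The zinc finger factor gene EGR1 rose there, at low levels, from 1.14 ± 0.239 to 3.31 ± 0.0781 CPM (adjusted p = 0.0316). At the medium aconite dose 21 of 26 rose and 0 fell (80.8% against 17.5%), with a median of 1.03. EGR1 rose from 1.14 ± 0.239 to 37.3 ± 0.174 CPM (adjusted p = 6.87e-11). FOS rose from 3.07 ± 0.62 to 24.1 ± 1.93 CPM (adjusted p = 2.8e-09) and FOSL1 to 168 ± 4.47 CPM (adjusted p = 7.05e-08). At the high aconite dose 5 rose and 0 fell (19.2% against 4.65%), and 8 rose without the 4 antisense-rich libraries. EGR1 was at 15.3 ± 2.01 CPM (adjusted p = 1.56e-07), FOSB at 6.19 ± 0.836 CPM (adjusted p = 0.00598) and FOSL1 at 73.0 ± 7.39 CPM (adjusted p = 0.00202), in libraries where NR4A1 overlapped vehicle and NR4A3 lay below it. With Bupleuri Radix EGR1 rose to 5.15 ± 1.58 CPM (adjusted p = 0.00186), the 1 call of 26 (3.85% against 3.36% of all genes, a like share); 10 rose in the fit with vehicle alone. With Cimicifugae Rhizoma and Yijung-tang 0 of 26 were called by edgeR, where 0.377% and 1.37% of all genes were, and the medians were -0.04 and -0.10.

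**Figure D4:**
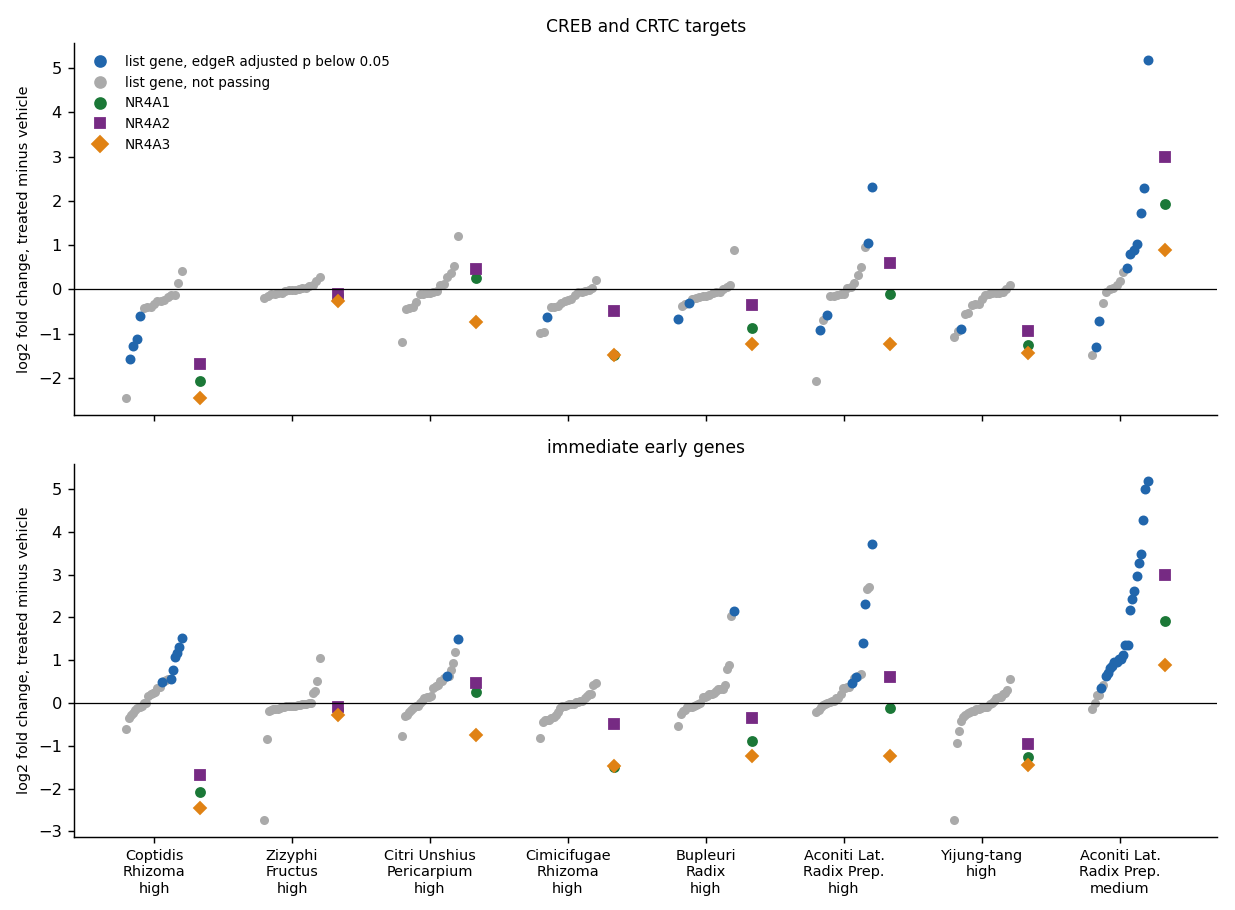
Log2 fold change against vehicle of each tested CREB and CRTC target (top) and immediate early gene (bottom) at the high dose of 7 medicines and the medium dose of Aconiti Lateralis Radix Preparata; blue points have an edgeR adjusted p below 0.05, grey points do not, and coloured symbols at the right of each column are NR4A1, NR4A2 and NR4A3. With Coptidis Rhizoma the 3 receptors lie at -1.68 to -2.45 while 7 immediate early genes are higher and 0 lower; at the medium aconite dose 21 are higher.

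Of the 15 tested partners and coregulators, RXRA, the heterodimer partner, was not called in any of the 8 comparisons (log2 fold changes from -0.14 ± 0.10 at the medium aconite dose to 0.24 ± 0.09 with Cimicifugae Rhizoma). RELA, the NF-kB subunit, rose at the medium aconite dose to 106 ± 1.59 from 73.3 ± 2.35 CPM (adjusted p = 6.4e-05).

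Reported NR4A target genes, 11 of 20 tested, held 2 calls with Coptidis Rhizoma (18.2% against 12.6%) and 3 at the medium aconite dose (27.3% against 17.5%). BIRC5, survivin, fell in both, in libraries where the NR4A genes were low and where they were high. It went from 218 ± 9.02 to 116 ± 1.43 CPM with Coptidis Rhizoma (adjusted p = 0.00111). With aconite it was at 148 ± 6.39 CPM (adjusted p = 0.0386), a call lost without any 1 of the 5 libraries compared (adjusted p up to 0.244). IDH1, isocitrate dehydrogenase, rose with Coptidis Rhizoma (299 ± 0.227 against 233 ± 8.25 CPM, adjusted p = 0.0114) and with Yijung-tang (328 ± 5.38 CPM, adjusted p = 0.00354). Both calls were lost on leaving out either replicate of those doses, and the first also without the low-count filter. IDH1 fell at the medium aconite dose (164 ± 0.813 CPM, adjusted p = 0.00024). SPP1, osteopontin, fell at the medium aconite dose from 167 ± 6.48 to 105 ± 8.32 CPM (adjusted p = 1.17e-05).

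Among the 34 other nuclear receptors tested, VDR, HNF4A and NR1D1 were called in several comparisons. VDR, the vitamin D receptor, rose with Coptidis Rhizoma (8.17 ± 0.525 against 4.17 ± 0.713 CPM, adjusted p = 5.42e-07) and Bupleuri Radix (8.62 ± 0.29 CPM, adjusted p = 4.89e-08). It rose as well with Yijung-tang (6.96 ± 0.469 CPM, adjusted p = 0.000525) and the high aconite dose (7.13 ± 0.202 CPM, adjusted p = 2.4e-05). HNF4A, the hepatocyte nuclear factor, fell with Coptidis Rhizoma from 107 ± 2.09 to 63.4 ± 0.092 CPM (adjusted p = 0.00225), at the high aconite dose to 57.0 ± 2.57 CPM (adjusted p = 0.000133) and at the medium one, where the NR4A genes were highest, to 30.9 ± 1.24 CPM (adjusted p = 1.19e-09). At the medium aconite dose the heme-binding clock receptors NR1D1 and NR1D2 rose to 22.6 ± 1.56 and 48.6 ± 4.34 CPM from 8.50 ± 0.799 and 20.3 ± 1.41 CPM (adjusted p = 3.5e-08 and 7.35e-07). The retinoic acid receptor gene RARB fell to 12.1 ± 0.422 from 28.3 ± 0.472 CPM (adjusted p = 1.68e-07). In all 7 of the 34 rose and 5 fell there (35.3% against 17.5%), and 4 rose without either medium-dose replicate. NR1D1 also rose with Bupleuri Radix at the high dose (13.6 ± 1.09 CPM, adjusted p = 0.00732), a call lost without vehicle replicate 1. Its level at the high aconite dose was 13.6 ± 1.04 CPM (adjusted p = 0.00492). NR1D2 rose with Coptidis Rhizoma at the high dose (30.9 ± 1.41 CPM, adjusted p = 0.0185), a call lost in 4 of 12 alternatives. With Zizyphi Fructus, where no NR4A gene stood apart from vehicle, edgeR called 0 of the 121 list genes and 0 of the 18568 tested. An unadjusted p below 0.05 was found for 1 of the 121 and for 439 of all tested genes, and DESeq2 called 3 genes in all.

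Likeness of pattern was measured as the Pearson correlation of mean log2 CPM over the 25 group means, among 10952 tested genes with a symbol and a mean of at least 5 CPM; the groups share library sets and vehicle handling, and the values are descriptions. The gene most like NR4A1 was TM4SF1, a tetraspanin-like membrane protein gene (r = 0.965, and 0.946 over 24 groups without the medium aconite dose). TM4SF1 had a mean of 480 CPM in vehicle, 176 with Coptidis Rhizoma at the high dose and 1060 at the medium aconite dose. Next came NR4A3 (0.91), the co-chaperone gene DNAJC12 (0.902), the caveolar coat gene CAVIN1 (0.886) and the small GTPase gene RHOF (0.881). For NR4A2 they were HAS2, a hyaluronan synthase (0.937), TM4SF1 (0.93), the myelin protein gene PMP22 (0.928), the AP-2 factor gene TFAP2C (0.928) and NR4A1 (0.921). Without the medium aconite dose HAS2 was at 0.834 and PMP22 at 0.807, ranks 57 and 130, while TM4SF1 was at 0.92. For NR4A3 they were EGLN1, an oxygen-sensing prolyl hydroxylase (0.929), the serum-induced kinase gene SGK1 (0.918), NR4A1 (0.91), TM4SF1 (0.899) and the ESCRT gene CHMP1B (0.898). Without the medium aconite dose SGK1 kept rank 2 for NR4A3, while EGLN1 was at rank 12, NR4A1 at 25, TM4SF1 at 38 and CHMP1B at 43. For NR4A1 the ranks were then 1 for TM4SF1, 11 for NR4A3, 20 for DNAJC12, 15 for CAVIN1 and 47 for RHOF. Between NR4A2 and NR4A3 the correlation was 0.79, the lowest of the 3 pairs; NR4A2 has a mean under 5 CPM and was not a candidate in the ranking for the other 2. With Spearman's correlation 2 of the 5 genes named for each receptor stayed among the top 5.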

How the data were processed

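The 3 receptors, the gene lists and the tests were chosen with earlier results of these data known. RNA of A549 cells was sequenced as strand-specific 100 bp pairs, per the labels. RSEM 1.3.3, STAR 2.7.3a, Trim Galore 0.6.5 and FastQC 0.11.9 are the tools, and hg38 and GRCh38 the builds, per the submitters' processing notes. Neither annotation release nor strand setting is given in the sources used here. The authors deposited expected counts by gene with no depth scaling. In genes above 0 somewhere, 84.4% of the values were whole. The table also holds 210 columns of other series, not used here. Column names match the codes in the sample descriptions.

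Expected counts were rounded and scaled by TMM. Genes were filtered by filterByExpr (minimum count 10, minimum total 15), which left 18568, and compared by the quasi-likelihood test of edgeR 4.0.16 under R 4.3.3. The 59 libraries entered 1 fit with 25 group means, leaving 34 residual degrees of freedom. Benjamini-Hochberg adjustment was made within each comparison, with a threshold of 0.05. The standard error is the absolute log2 fold change over the square root of F. It rests on a spread estimated per gene over all groups, and so does not measure the spread of the groups compared. The receptors and Banhasasim-tang (1 library per dose) were not tested. The labels do not say whether replicates are separate cultures, so p-values measure only the spread between these libraries. Log2 CPM for correlations used a prior count of 2. The fit was tested on simulated counts.

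Symbols were found for 56558 gene IDs, and positions are from GENCODE 29 (GRCh38), which held 94% of the IDs. Named from each list are up to 4 called genes per comparison with the largest fold change, given a mean of 5 CPM or more in 1 of the groups, and always SIK1, PDE4D, CREM, FOS, EGR1, CREB1, CRTC2 and RXRA; LINC00473, also named by this rule, was not matched to an ID. Not each of these is printed. Alternatives were RLE scaling, DESeq2 1.42.0, no low-count filter, leaving out the 4 libraries of high antisense share, a fit of each medicine with vehicle alone, the replicate number as a block, and leaving out each replicate. Leaving out replicate 2 of Citri Unshius Pericarpium, or the medium aconite dose from the correlations, was added after seeing the data. Replicate numbers did not pair treated with vehicle libraries. By the correlation of deviations they paired the high and low doses of Citri Unshius Pericarpium (0.12 to 0.24 over 3 pairs).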

Additional observations from a re-analysis of the deposited data

How the results depend on the processing

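Of 1044 NR4A fold changes recomputed over 84 results, 28 changed sign. Leaving out replicate 2 of Citri Unshius Pericarpium gave 10 of these, for NR4A1 and NR4A2; the other 18 had reported values between -0.10 and 0.05, near no difference. For NR4A1 at its high dose the value went from 0.25 to -0.02. Without its 3 replicate 2 libraries, an alternative chosen after seeing the data, NR4A2 was at -0.09 (high dose), -0.22 (medium) and -0.16 (high against low). Without the single replicate 2 library concerned it was at -0.10, -0.21 and -0.21. Over single replicates left out it ran from -0.10 to 0.66 at the high dose, -0.21 to 0.91 at the medium and -0.21 to 0.55 for high against low. With Coptidis Rhizoma at the high dose NR4A1 ran from -2.20 to -1.91 and NR4A2 from -2.14 to -1.29.

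Counts of genes called at the high dose moved more than the receptors, with list genes in parentheses here. From 2332 (20), Coptidis Rhizoma went to 5116 (49) without the 4 antisense-rich libraries, 7157 (67) fitted with vehicle alone and 2901 without the 3 Citri replicate 2 libraries. Citri Unshius Pericarpium, from 821 (5), went to 266 and 0 (0) under these, 2100 (13) with no low-count filter, 1794 (9) by DESeq2 and 3531 (19) without its replicate 2. Cimicifugae Rhizoma, from 70 (1), went to 683 (16) and 12 (0), then 110 (2) with no filter, 122 (2) by DESeq2 and 153 (2) without the Citri replicate 2 libraries. Bupleuri Radix, from 624 (8), went to 2623 (24) without the 4 libraries, 4311 (44) with vehicle alone and 980 (11) without the Citri libraries. Yijung-tang, from 254 (3), went to 1670 (13), 3093 (25) and 550 (5) in that order, and 409 by DESeq2. Zizyphi Fructus, from 0, went to 8, 2 and 2 in that order, 27 with no filter and 3 by DESeq2. Aconiti Lateralis Radix Preparata went from 864 (15) to 2746 (28) without the 4 libraries, 3881 (40) with vehicle alone and 1207 without the Citri libraries, and at the medium dose from 3253 to 6018, 7116 and 3682. The cause was not tested.

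Leaving out 1 replicate at a time gave 1163 to 1767 genes for Coptidis Rhizoma, 0 to 4741 (0 to 35) for Citri Unshius Pericarpium and 34 to 45 (0 to 1) for Cimicifugae Rhizoma. It gave 296 to 472 (5 to 6) for Bupleuri Radix, 70 to 161 for Yijung-tang, 471 to 593 (9 to 13) for high-dose and 1856 to 2650 for medium-dose aconite, and 0 for Zizyphi Fructus.

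With the replicate block 2483 genes were called for Coptidis Rhizoma, and NR4A1, NR4A2 and NR4A3 were at -2.10, -1.70 and -2.42; the block moved no count of genes called by over 1.5 times. Deviations of same-numbered treated and vehicle libraries correlated at -0.16 to 0.16, so the numbers were not read as pairs with vehicle. Between the high and low doses all 3 pairs were over 0.1 for Citri Unshius Pericarpium, where the replicate block moved NR4A2 from 0.35 to 0.32, and 2 of 3 for Cimicifugae Rhizoma (0 to 0.26). NR4A2, with the fewest reads, is limited most by depth.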
